A study of Rattus norvegicus with 8 samples.

Results

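The potassium channel genes of the rat cervix were taken as every row of the deposited count table whose symbol begins with Kcn, followed by letters and a number. The pattern found 93 of 29884 gene symbols. Of these 93, 6 had no count in any library and 62 passed the filter on low counts. They were sorted by symbol into 40 voltage-gated, 8 calcium-activated, 15 inward rectifier, 14 two-pore and 16 auxiliary genes. The calcium-activated class also holds the sodium-activated and pH-sensitive relatives of the large-conductance channel (Kcnt1, Kcnt2 and Kcnu1). The samples were cervix from wild-type pregnant Sprague-Dawley rats, taken 12 h after an intraperitoneal injection on gestational day 17. The LPS group (4 libraries) received lipopolysaccharide, the endotoxin of Gram-negative bacteria, at 100 µg/kg, and the PBS group (4 libraries) the same volume of phosphate-buffered saline. The series' title presents the injection as a model of preterm birth, and its design text calls the 4 samples of a group biological replicates. The tissue was sequenced in bulk, so that muscle, vessels, epithelium, nerve and blood cells can all contribute.

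Potassium channels let potassium leave the cell and so pull the membrane potential away from the threshold at which voltage-gated calcium channels open. In smooth muscle they are brakes on contraction, and in the uterus during pregnancy they are known for holding the muscle quiet until labour. Voltage-gated channels open as the membrane depolarises, calcium-activated channels open as calcium rises, inward rectifiers and two-pore channels set the resting potential, and auxiliary subunits change the gating or the trafficking of the pore-forming subunits. In epithelia, potassium channels sustain the driving force for chloride and fluid secretion, and in macrophages they set the potential that drives calcium entry.

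Of the 62 tested members, 6 rose and 9 fell 12 h after LPS at an adjusted p under 0.05 (edgeR quasi-likelihood test, Benjamini-Hochberg adjustment over all 16117 genes tested). That is 24.2% of the tested members, against 16.9% of all genes tested. Higher were 9.68% of the tested members (all genes 9.49%), and lower were 14.5% (all genes 7.45%). The genes that rose were Kcne3, Kcnt1, Kcnab2, Kcnj2, Kcnd1 and Kcnh1, and those that fell included Kcng1, Kcna5, Kcnf1, Kcna2, Kcnq1, Kcnk7, Kcnn3 and Kcnip2. The number that fell was 5 without PBS replicate 2 or LPS replicate 3, 4 with PBS replicate 1 and LPS replicate 2 omitted together, and 16 with DESeq2. Kcnq1, Kcna5, Kcnab2, Kcnj2, Kcne3 and Kcnd1 were called under each of the 17 alternatives run. The median log2 fold change (LPS minus PBS) was -0.27 over the 62 tested members and 0.01 over all genes tested. The levels of LPS and PBS libraries did not overlap for 19 of the 62, or 30.6%, against 23.4% of all genes tested.

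**Figure D1:**
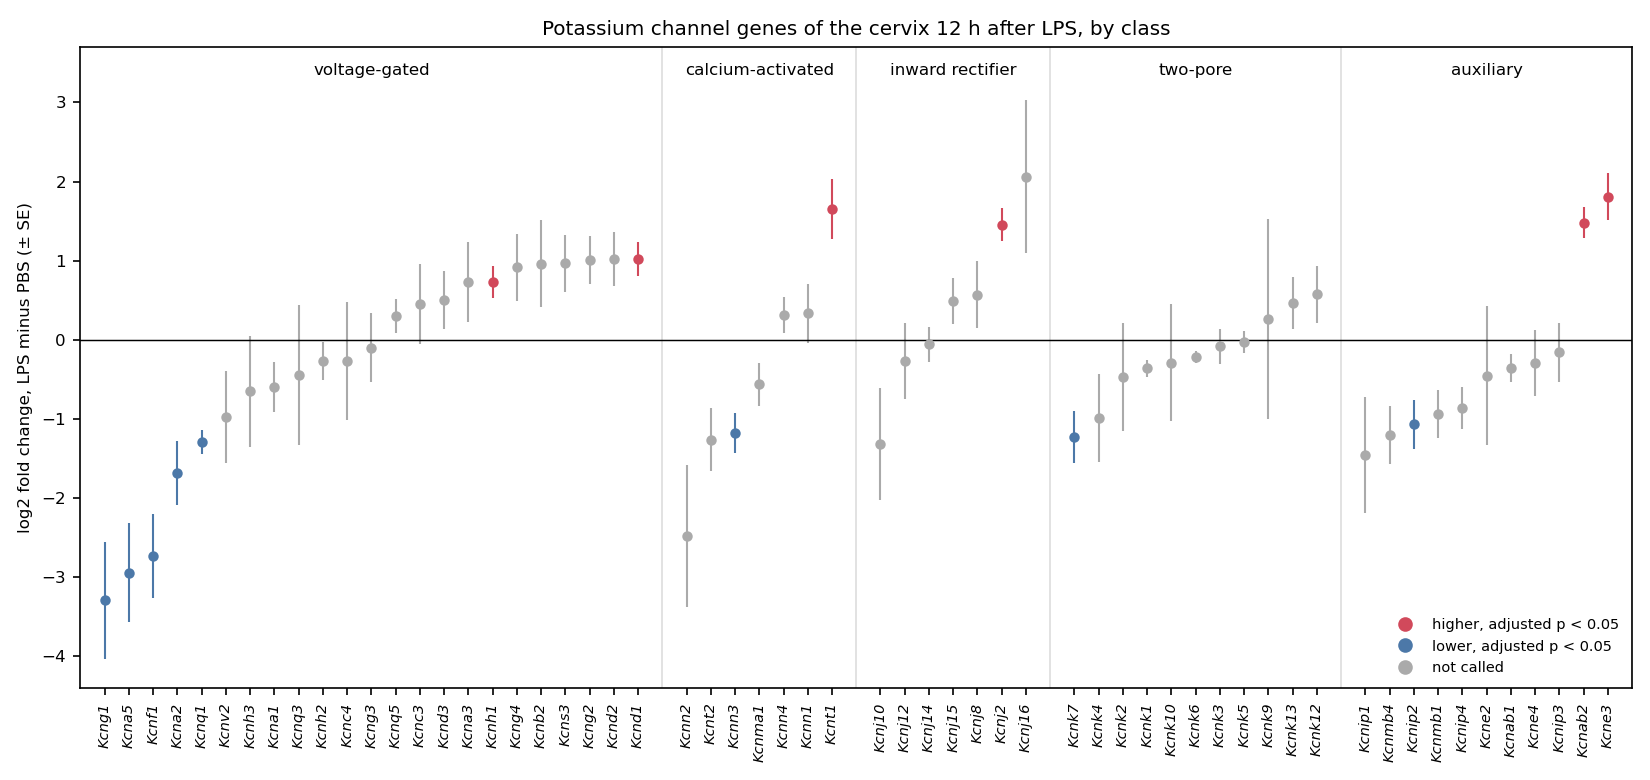
Log2 fold change (LPS minus PBS, y axis, ± SE of the edgeR fit, 4 libraries a group) of 59 of the 62 tested potassium channel genes, ordered within its class along the x axis. Red points rose, blue points fell and grey points were not called, and the values run from -3.29 for Kcng1 to 2.06 for Kcnj16, which was not called.

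Libraries held 33191039 to 40634384 counts. Levels below are counts per 1000000 (CPM) of the library size scaled by edgeR's TMM factors, and 3 counts correspond to 0.0734 to 0.0899 CPM. Because counts are not divided by transcript length, levels are compared between groups and never between genes. The 13 smooth muscle markers summed to 5612 to 15404 CPM in PBS and 4795 to 6898 CPM in LPS, with PBS replicate 4 at the low end of its group, and 7 of the 13 fell. That number was 13 without PBS replicate 4, 3 when PBS replicate 1 or LPS replicate 2 was omitted, 2 for PBS replicate 3, 1 for PBS replicate 2 or LPS replicate 3 and 0 for LPS replicate 1. The 8 macrophage markers summed to 414 to 544 CPM in PBS and 1104 to 1583 CPM in LPS (7 rose), the 7 neutrophil markers to 36.0 to 61.4 CPM in PBS and 391 to 1628 CPM in LPS (6 rose), and the 7 epithelial markers to 6940.1 to 11396 CPM in PBS and 5079 to 6128 CPM in LPS (Krt13 fell). The 6 Schwann cell markers summed to 124 to 193 CPM in PBS and 20.7 to 83.7 CPM in LPS (3 fell), the 8 endothelial markers to 343 to 743 CPM in PBS and 363 to 542 CPM in LPS (2 fell) and the 6 pericyte markers to 382 to 589 CPM in PBS and 374 to 491 CPM in LPS (2 fell). The 6 neuron markers summed to 25.9 to 126 CPM in PBS and 18.6 to 153 CPM in LPS and the 5 T cell markers to 8.14 to 16.8 CPM in PBS and 9.54 to 14.8 CPM in LPS, and 0 of either list were called. The 5 striated muscle markers summed to 68.3 to 261 CPM in PBS and 38.5 to 84.0 CPM in LPS, and 1 of the 3 tested, Acta1, fell. Every marker in the table passed the filter on low counts, except 2 of the striated muscle list, and 0 markers were at 0 in all libraries. In bulk tissue, fewer cells of a type and less RNA per cell cannot be told apart, and what these shifts contribute to the channel values was not tested.

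**Figure D2:**
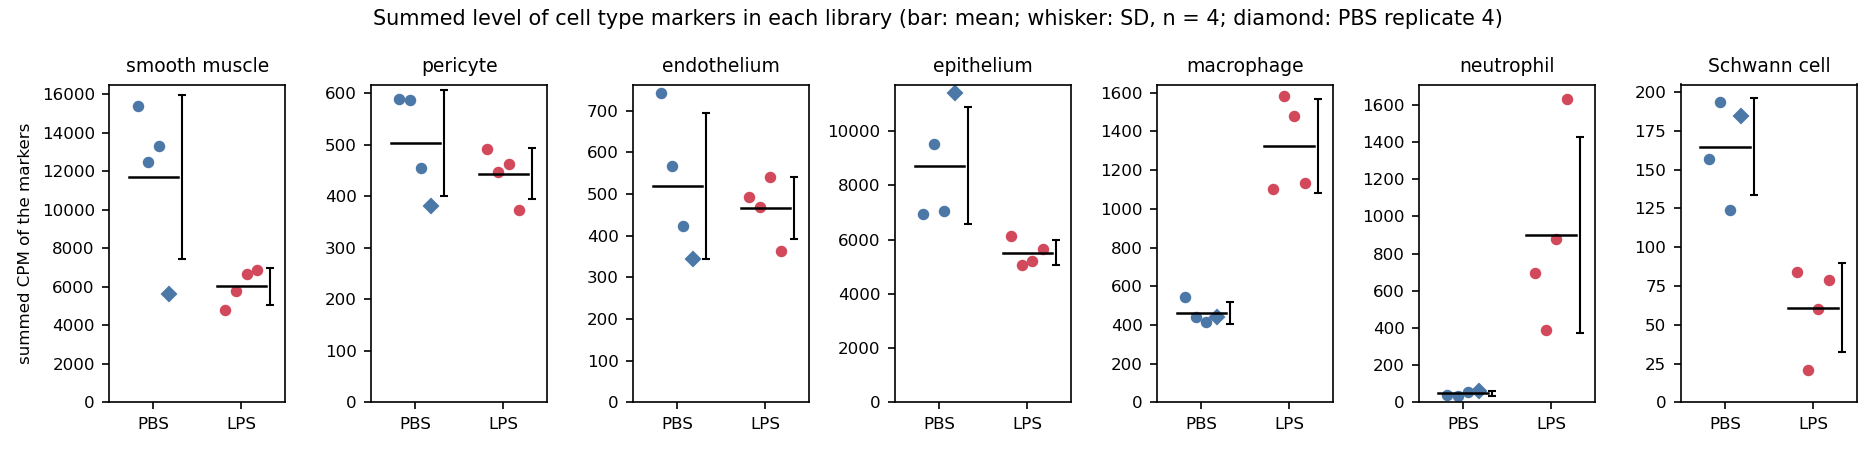
Summed level of the smooth muscle, pericyte, endothelial, epithelial, macrophage, neutrophil and Schwann cell markers (y axis, CPM) in the 4 PBS and 4 LPS libraries. The group mean is shown as a bar and the SD as a whisker. Smooth muscle markers run from 4795 to 6898 CPM in LPS and from 5612 to 15404 CPM in PBS, where the lowest library is PBS replicate 4, while macrophage and neutrophil markers are higher in every LPS library than in any PBS library.

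The voltage-gated class held 26 of the 62 tested members and 8 of the 15 calls, with 2 genes higher and 6 lower. Called were 30.8% of the class, against 24.2% of all tested members and 16.9% of all genes tested. The median log2 fold change of the class was -0.18, a direction that turned without PBS replicate 3 (0.22) and with limma-voom (0.14), while the median was -0.48 without LPS replicate 1 and -0.37 without PBS replicate 1. Kcnq1 encodes Kv7.1, which carries the slow delayed rectifier of the heart and, with KCNE subunits, the basolateral potassium current of epithelia. It was measured at 45.6, 58.6, 43.6 and 62.7 CPM in PBS replicates 1 to 4 and 22.9, 25.2, 18.01 and 19.7 CPM in LPS replicates 1 to 4. Every LPS library lay below every PBS library. The PBS library with the most Kcnq1, replicate 4, held the most epithelial and the fewest smooth muscle markers of its group. In LPS, replicate 2 held the most Kcnq1 but the fewest epithelial markers (5079 CPM). The summed epithelial markers were also lower in every LPS library than in any PBS library, but 6 of the 7 overlapped and were not called. Without Krt13 they summed to 5224 to 7860.3 CPM in PBS and 5015 to 6074 CPM in LPS, a sum chosen after seeing the data, and their part in the fall of Kcnq1 was not tested. Kcnq1 fell 2.45-fold, from 52.6 ± 9.47 to 21.5 ± 3.23 CPM (mean ± SD, n = 4; log2 fold change -1.29, SE 0.15, adjusted p = 0.00159). Kcnq5, a Kv7 gene of smooth muscle, had 4.93, 6.61, 4.14 and 4.77 CPM in PBS replicates 1 to 4 and 5.46, 6.63, 5.04 and 8.14 CPM in LPS replicates 1 to 4, and its groups overlapped (log2 fold change 0.31, SE 0.21, adjusted p = 0.359). Kcnq3, which contributes to the M current of neurons, had a log2 fold change of -0.44 and was not called.

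Among the Kv1 (shaker) genes, 2 of the 4 tested fell and 0 rose, where 7.45% of all genes tested fell and 9.49% rose. Kcna5 encodes Kv1.5, a delayed rectifier of vascular smooth muscle that opposes depolarisation. It had 1.61, 2.28, 1.45 and 1.80 CPM in PBS replicates 1 to 4 and 0.445, 0.0256, 0.127 and 0.318 CPM in LPS replicates 1 to 4, and the groups were far apart. The fall was from 1.78 ± 0.357 to 0.229 ± 0.188 CPM (mean ± SD, n = 4), with 274 counts in the 4 PBS libraries against 37 in LPS (log2 fold change -2.94, SE 0.62, adjusted p = 0.0151). Kcna2, or Kv1.2, occurs in smooth muscle and beside the nodes of myelinated axons. Its levels were 1.86, 3.24, 4.12 and 3.27 CPM in PBS replicates 1 to 4 and 1.24, 0.614, 0.532 and 1.49 CPM in LPS replicates 1 to 4. The groups did not overlap, and Kcna2 fell by 1.68 on the log2 scale (SE 0.41, adjusted p = 0.0251). It was no longer called when PBS replicate 2, 3 or 4 or LPS replicate 2 or 3 was omitted (edgeR adjusted p of 0.0516 to 0.0662). The summed Schwann cell markers were also lower in every LPS library than in any PBS library, and their part in the fall of Kcna2 was not tested. Kcna1, an axonal partner of Kcna2, had a log2 fold change of -0.60 (adjusted p = 0.224), and Kcna3, the Kv1.3 channel of T cells and macrophages, one of 0.73 (adjusted p = 0.354).

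The silent subunits, which form no channel alone and modify Kv2 channels, held 2 of the 3 steepest falls among the called members. Kcng1 encodes Kv6.1 and had 5.72, 2.77, 11.3 and 1.32 CPM in PBS replicates 1 to 4 and 0.716, 0.461, 0.152 and 0.807 CPM in LPS replicates 1 to 4. It fell 9.81-fold (log2 fold change -3.29, SE 0.74, adjusted p = 0.0188), and its PBS libraries spread widely, from 1.32 to 11.3 CPM. Its call held with each library left out in turn, but not with PBS replicate 1 and LPS replicate 2 omitted together, and neither limma-voom fit made it (adjusted p of 0.0550 and 0.0705). Kcnf1, which encodes Kv5.1, had 4.06, 4.53, 3.203 and 2.10 CPM in PBS replicates 1 to 4 and 0.173, 0.435, 1.09 and 0.391 CPM in LPS replicates 1 to 4. All LPS libraries held less Kcnf1 than the lowest PBS library, and Kcnf1 fell by 2.73 on the log2 scale (SE 0.53, adjusted p = 0.0110). Omitting PBS replicate 1 together with LPS replicate 2 ended the call (-2.57, adjusted p = 0.0508). The modifiers Kcng2, Kcng4 and Kcns3 had log2 fold changes of 1.01, 0.91 and 0.97 (adjusted p of 0.0529, 0.172 and 0.102), and LPS replicate 3 held 31.8 CPM of Kcns3 against at most 13.6 CPM in the other libraries.

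The Kv4 (shal) genes carry rapidly inactivating A-type currents, which delay the return to threshold. Kcnd1 (Kv4.1) had 5.13, 3.64, 3.72 and 2.55 CPM in PBS replicates 1 to 4 and 7.83, 8.45, 7.45 and 6.92 CPM in LPS replicates 1 to 4. The groups were apart, and Kcnd1 rose 2.03-fold (log2 fold change 1.02, SE 0.22, adjusted p = 0.0146). The log2 fold changes of Kcnd2 and Kcnd3 were 1.02 (adjusted p = 0.0730) and 0.51 (adjusted p = 0.377), and neither was called. In the ether-a-go-go family, Kcnh1 (EAG1), a channel best known from neurons, was measured at 10.96, 7.62, 9.78 and 8.63 CPM in PBS replicates 1 to 4 and 18.4, 12.0, 19.2 and 11.9 CPM in LPS replicates 1 to 4. The groups did not overlap, and Kcnh1 rose by 0.73 on the log2 scale (SE 0.20, adjusted p = 0.0390), a call that limma-voom did not make and that went with the omission of PBS replicate 2, 3 or 4 or LPS replicate 1 or 3 (edgeR adjusted p of 0.0791 to 0.110). Kcnh2 encodes ERG1, whose current is known from the repolarisation of the heart and of uterine muscle. It had 23.4, 17.1, 16.4 and 12.3 CPM in PBS replicates 1 to 4 and 14.0, 20.0, 11.7 and 11.7 CPM in LPS replicates 1 to 4, the groups overlapped, and its log2 fold change was -0.27 (SE 0.23, adjusted p = 0.468), or -0.09, -0.40 and -0.48 without PBS replicate 1, PBS replicate 4 or LPS replicate 2.

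The auxiliary subunits of voltage-gated channels moved in both directions. The auxiliary class also holds subunits of the large-conductance calcium-activated channel, Kcnmb1 and Kcnmb4 among those tested. Of the 11 tested auxiliary genes, 2 rose and 1 fell (27.3% called, against 16.9% of all genes tested, median log2 fold change -0.45). Kcne3 encodes a single-span subunit that keeps Kv7.1 channels open in secretory epithelia. It had 5.31, 4.36, 8.67 and 8.30 CPM in PBS replicates 1 to 4 and 16.6, 20.0, 22.1 and 34.7 CPM in LPS replicates 1 to 4, and LPS replicate 4 was the highest. It rose 3.50-fold, from 6.66 ± 2.15 to 23.3 ± 7.90 CPM (mean ± SD, n = 4; log2 fold change 1.81, SE 0.30, adjusted p = 0.00552). Kcne4, which inhibits Kv7.1, had 21.2, 12.4, 18.3 and 6.56 CPM in PBS replicates 1 to 4 and 7.93, 9.55, 21.0 and 9.07 CPM in LPS replicates 1 to 4. The groups overlapped (log2 fold change -0.30, SE 0.42, adjusted p = 0.663), with LPS replicate 3 apart from the other LPS libraries. Kcnab2, the cytoplasmic beta 2 subunit of Kv1 channels, had 6.62, 6.56, 8.45 and 4.41 CPM in PBS replicates 1 to 4 and 21.1, 17.1, 18.8 and 15.8 CPM in LPS replicates 1 to 4. It rose 2.79-fold (log2 fold change 1.48, SE 0.20, adjusted p = 0.00235), with no overlap. The summed macrophage and neutrophil markers were also higher in every LPS library. Their part in this rise, or in that of any other member that rose, was not tested. The span of Kcnab2 overlaps Nphp4 in the RefSeq gene table, and reads of the overlap could not be assigned. Kcnab1, the beta 1 subunit, had 8.40, 13.7, 9.93 and 12.0 CPM in PBS replicates 1 to 4 and 8.77, 10.01, 7.14 and 8.44 CPM in LPS replicates 1 to 4 and was not called (log2 fold change -0.36, SE 0.18, adjusted p = 0.203).

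KChIP proteins bind Kv4 channels, sense calcium and raise the A-type current. Kcnip2 (KChIP2) had 6.87, 5.87, 6.41 and 6.62 CPM in PBS replicates 1 to 4 and 1.68, 4.04, 2.18 and 4.38 CPM in LPS replicates 1 to 4. The 4 PBS libraries lay close together and above all of LPS, and Kcnip2 fell by 1.07 on the log2 scale (SE 0.31, adjusted p = 0.0460). Omitting a single PBS library, whichever it was, or LPS replicate 1 or 3, ended this call (edgeR adjusted p of 0.0684 to 0.104). Kcnip4 had a log2 fold change of -0.86 (adjusted p = 0.0549), Kcnip1 of -1.45 (adjusted p = 0.209) and Kcnip3 of -0.16 (adjusted p = 0.807).

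**Figure D3:**
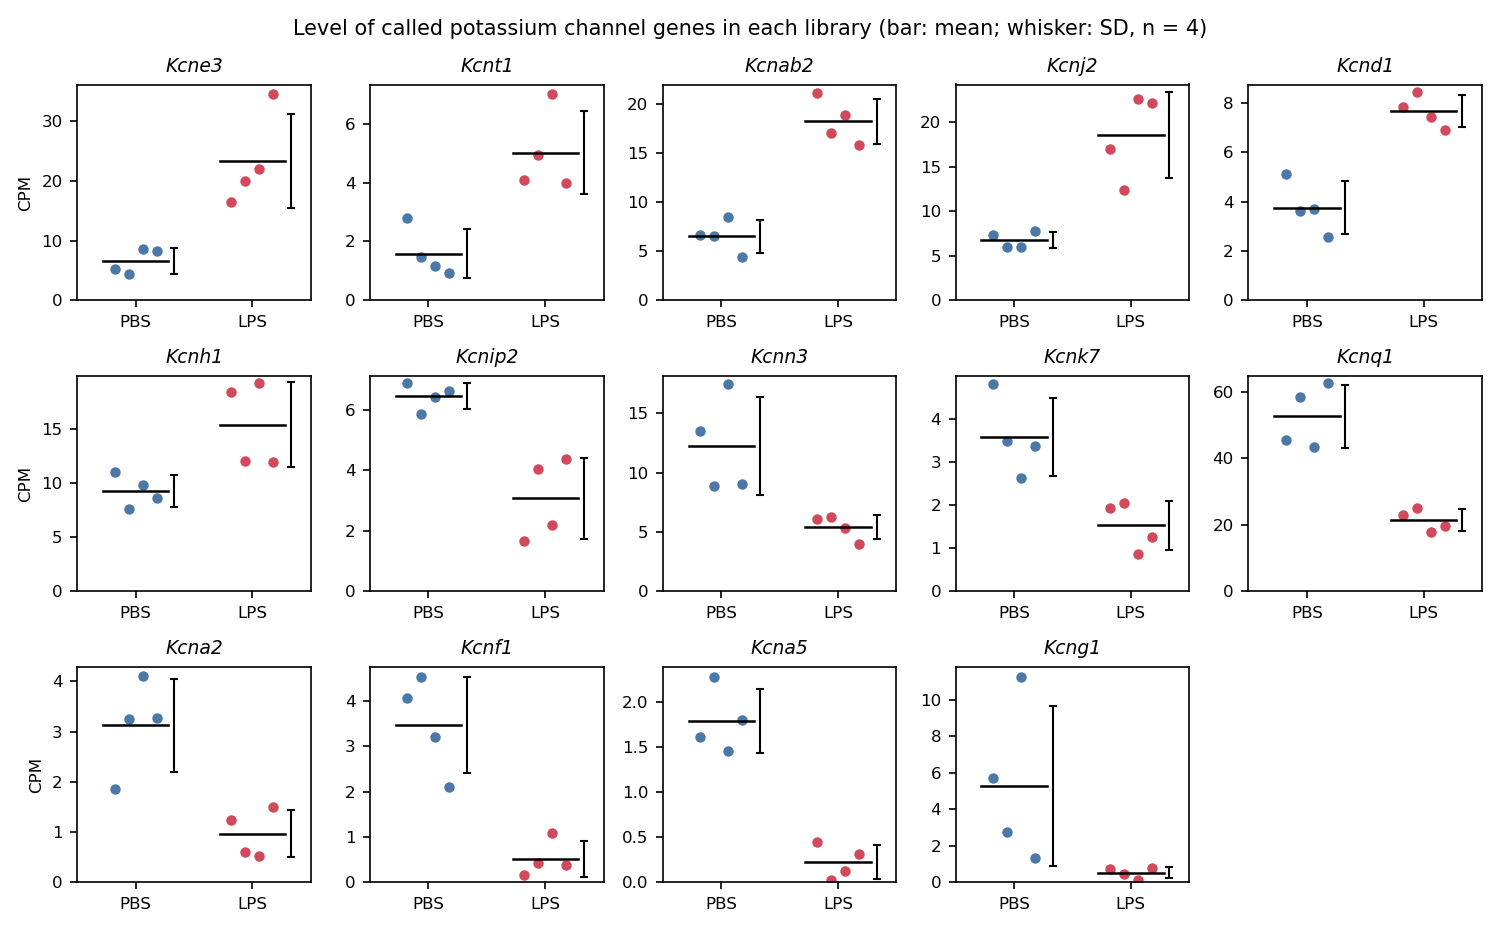
Level (y axis, CPM, from 0) of 14 of the 15 called potassium channel genes in each of the 4 PBS and 4 LPS libraries, with the group mean as a bar and the SD as a whisker. The groups do not overlap in any panel, and the PBS libraries of Kcng1 run from 1.32 to 11.3 CPM.

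The promoters of some called members are shown at the sequence level, and they do not stand for all genes that rose or fell. RefSeq promoter sequences (GRCr8; 250 bases before to 50 after the start) were found for 11 of the 15 called members and for 63 of all 93. The counts were made on mRatBN7.2, and no coordinate was converted. Kcne3 (chr1:163935785-163936084, plus strand) and Kcnj2 (chr10:96559975-96560274, plus strand) rose, and Kcna5 (chr4:161043760-161044059, minus strand) and Kcnf1 (chr6:45693657-45693956, minus strand) fell. Capitals mark the GC box GGGCGG, read on both strands:
Kcne3: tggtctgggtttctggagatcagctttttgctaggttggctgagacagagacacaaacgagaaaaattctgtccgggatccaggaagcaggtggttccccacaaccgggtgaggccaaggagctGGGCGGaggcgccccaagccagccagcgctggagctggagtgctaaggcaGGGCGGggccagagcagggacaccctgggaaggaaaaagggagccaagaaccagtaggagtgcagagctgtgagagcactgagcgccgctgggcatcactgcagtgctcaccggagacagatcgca
Kcnj2: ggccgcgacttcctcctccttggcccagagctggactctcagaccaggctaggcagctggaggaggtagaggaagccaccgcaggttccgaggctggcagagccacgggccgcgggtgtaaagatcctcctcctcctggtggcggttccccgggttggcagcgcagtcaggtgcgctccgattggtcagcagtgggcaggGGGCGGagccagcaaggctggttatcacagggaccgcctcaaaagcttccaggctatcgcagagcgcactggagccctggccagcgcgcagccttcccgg
Kcna5: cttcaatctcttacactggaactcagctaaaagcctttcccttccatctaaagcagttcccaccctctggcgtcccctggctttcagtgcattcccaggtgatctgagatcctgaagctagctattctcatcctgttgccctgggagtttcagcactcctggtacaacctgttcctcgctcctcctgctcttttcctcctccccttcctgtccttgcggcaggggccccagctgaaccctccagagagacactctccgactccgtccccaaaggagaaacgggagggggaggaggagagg
Kcnf1: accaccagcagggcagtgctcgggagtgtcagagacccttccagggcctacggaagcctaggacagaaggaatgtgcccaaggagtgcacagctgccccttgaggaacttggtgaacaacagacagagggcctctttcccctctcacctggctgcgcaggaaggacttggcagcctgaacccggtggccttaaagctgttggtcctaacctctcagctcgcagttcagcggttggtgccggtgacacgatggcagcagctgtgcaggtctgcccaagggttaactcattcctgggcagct
Kcne3 holds 2 GC boxes, Kcnj2 holds 1, and Kcna5 and Kcnf1 hold 0. The called promoters not printed do not all follow this contrast. Of those that rose, Kcnab2 holds 0, Kcnh1 holds 2 and Kcnt1 holds 3 or 1, depending on the start. Of those that fell, Kcna2 holds 4, Kcnip2 holds 2, and Kcnk7 and Kcnn3 hold 0. The GC box was found in the promoters of 4 of the 5 genes that rose and 2 of the 6 that fell, and in 33.1% of all 33469 promoters. Of the 39 tested members with a promoter sequence, called or not, 24 held it. The CArG box (bound by serum response factor in smooth muscle genes), the NF-kB site, the AP-1 site TGANTCA, the STAT site TTCNNNGAA and the TATA box TATAAA were found in 0 of the 11. They were present in 1.64%, 7.51%, 7.33%, 8.87% and 14.2% of all promoters on either strand. Overlaps between motifs were allowed. A match or its absence describes only the letters in this window.

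Calcium-activated channels couple the rise of calcium in a contracting cell to repolarisation. Of the 7 tested, Kcnn3 fell and Kcnt1 rose (28.6% called, against 16.9% of all genes tested). The median log2 fold change was -0.56, -0.34 without PBS replicate 2, and 0.30 over the 5 genes with at least 1 CPM in 4 libraries. Kcnn3 encodes the small-conductance channel SK3, whose forced expression disturbs parturition in mice. It had 13.5, 8.91, 17.5 and 9.08 CPM in PBS replicates 1 to 4 and 6.10, 6.27, 5.32 and 3.99 CPM in LPS replicates 1 to 4. No LPS library reached the lowest PBS library, and Kcnn3 fell from 12.3 ± 4.10 to 5.42 ± 1.04 CPM (mean ± SD, n = 4; log2 fold change -1.18, SE 0.26, adjusted p = 0.0168). With PBS replicate 1 and LPS replicate 2 omitted together its edgeR adjusted p was 0.0536. Kcnn2 (SK2) had 1.71, 0.495, 1.503 and 0.210 CPM in PBS replicates 1 to 4 and 0.445, 0.0256, 0.0506 and 0.171 CPM in LPS replicates 1 to 4. Its log2 fold change was -2.48 (SE 0.90, adjusted p = 0.0941), and of the 16 alternatives in which it was tested DESeq2 alone called it (adjusted p = 0.0342). Kcnt1, the sodium-activated Slack channel, was measured at 2.81, 1.46, 1.16 and 0.929 CPM in PBS replicates 1 to 4 and 4.10, 4.94, 7.01 and 3.99 CPM in LPS replicates 1 to 4. The groups did not overlap, and Kcnt1 rose by 1.65 on the log2 scale (SE 0.38, adjusted p = 0.0201), a call ended by omitting PBS replicate 2 or 3 or LPS replicate 3 (edgeR adjusted p of 0.0520 to 0.0646). Its relative Kcnt2 had a log2 fold change of -1.26 (adjusted p = 0.0598). The intermediate-conductance channel Kcnn4, found in macrophages and epithelia, had 4.33 ± 1.203 CPM in PBS and 5.37 ± 0.736 CPM in LPS and was not called (log2 fold change 0.31, SE 0.22, adjusted p = 0.371).

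The large-conductance (BK) channel is a well-known calcium-activated brake of uterine muscle. Its pore gene Kcnma1 had 13.7, 19.5, 10.5 and 10.8 CPM in PBS replicates 1 to 4 and 7.21, 12.7, 6.61 and 10.4 CPM in LPS replicates 1 to 4. The groups overlapped, and its log2 fold change was -0.56 (SE 0.27, adjusted p = 0.189), or -0.34 without PBS replicate 2. Kcnmb1, the smooth muscle beta 1 subunit that raises the calcium sensitivity of the channel, had 66.7, 72.3, 91.7 and 34.9 CPM in PBS replicates 1 to 4 and 26.4, 41.7, 24.7 and 45.8 CPM in LPS replicates 1 to 4. PBS replicate 4, the library with the fewest smooth muscle markers of its group, lay within the LPS range. Its log2 fold change was -0.94 (SE 0.31, adjusted p = 0.0698). It passed with DESeq2 (-0.95, adjusted p = 0.0143) and without PBS replicate 4 (-1.15, adjusted p = 0.0217). Kcnmb1 and Kcnip1 overlap in the RefSeq gene table, and the strand setting of the counts is not given in the sources used here. Kcnmb4, the beta 4 subunit, was lower in every LPS library without passing the test (log2 fold change -1.21, SE 0.37, adjusted p = 0.0545).

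On a scale of counts per 10000 summed smooth muscle marker counts, the BK genes of the groups overlapped. Kcnmb1 stood at 58.0 ± 10.8 in PBS and 57.6 ± 15.5 in LPS and Kcnma1 at 12.9 ± 5.42 in PBS and 15.5 ± 4.98 in LPS (mean ± SD, n = 4). Among the genes whose CPM fell, Kcnn3 (11.3 ± 4.13 in PBS and 9.32 ± 3.07 in LPS), Kcnq1 (55.2 ± 38.4 in PBS and 36.7 ± 10.5 in LPS), Kcna2, Kcnip2 and Kcnk7 also overlapped on this scale. Kcnq1 stood at 112 in PBS replicate 4, low in smooth muscle markers, and at 29.6 to 46.9 in PBS replicates 1 to 3. Its known sites given above are heart and epithelia, which this scale does not measure. Kcna5 stayed apart, with 1.04, 1.82, 1.09 and 3.204 in PBS and 0.927, 0.0443, 0.189 and 0.461 in LPS replicates 1 to 4. Kcnf1 and Kcng1 were also lower in every LPS library on this scale, and Kcnj8, an inward rectifier described below, was higher in every one (21.8 ± 3.97 in PBS and 64.5 ± 28.3 in LPS). It describes a ratio of 2 quantities that both differ between libraries, and it was not tested.

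**Figure D4:**
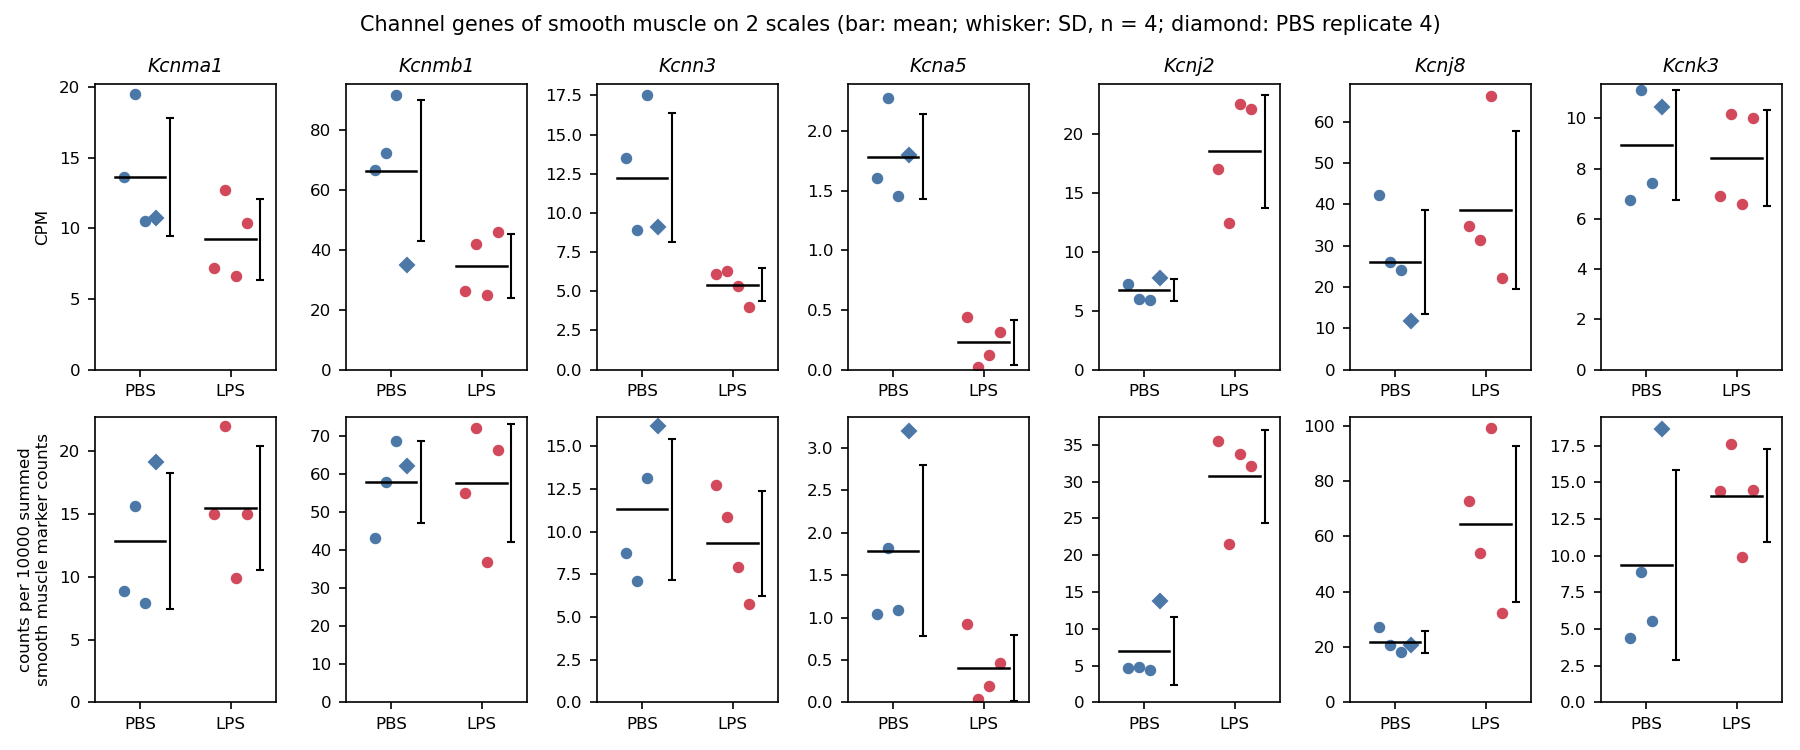
Channel genes known from smooth muscle in each library, as CPM (upper row) and as counts per 10000 summed counts of 13 smooth muscle markers (lower row), with the group mean as a bar and the SD as a whisker. Kcna5 is lower in every LPS library on both scales, Kcnn3 only in CPM, Kcnj2 is higher in every LPS library on both, and Kcnj8 is higher in every LPS library only on the lower scale; the diamond marks PBS replicate 4.

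Inward rectifiers hold the resting potential near that of potassium. Of the 7 tested, Kcnj2 rose and 0 fell (14.3% called, against 16.9% of all genes tested). The median log2 fold change was 0.49, 0.18 without LPS replicate 3, and -0.72 over the 14 genes left with no filter on low counts. Kcnj2 encodes Kir2.1, a strong rectifier of muscle, endothelium and macrophages. It had 7.28, 6.04, 5.94 and 7.76 CPM in PBS replicates 1 to 4 and 17.0, 12.4, 22.6 and 22.1 CPM in LPS replicates 1 to 4. All LPS libraries were above all PBS libraries, by 2.74-fold in the fit (log2 fold change 1.46, SE 0.20, adjusted p = 0.00299). Kcnj8 (Kir6.1) is the pore of the ATP-sensitive channel of vascular smooth muscle and pericytes. It had 42.3, 26.0, 24.1 and 11.7 CPM in PBS replicates 1 to 4 and 34.8, 31.3, 66.2 and 22.3 CPM in LPS replicates 1 to 4. The groups overlapped, LPS replicate 3 was the highest and PBS replicate 4 the lowest, and its log2 fold change was 0.57 (SE 0.42, adjusted p = 0.385). Leaving out LPS replicate 3 gave 0.18 and leaving out PBS replicate 1 or 4 gave 0.90 or 0.33, with no call. Abcc9, which encodes its SUR2 partner, had 42.8 ± 15.7 CPM in PBS and 41.1 ± 7.34 CPM in LPS (log2 fold change -0.06, SE 0.26, adjusted p = 0.901). Kcnj11, the Kir6.2 pore, was below the filter, with 22 counts in the 4 PBS libraries and 4 in LPS, and so was Kcnj5, a G protein-gated channel named after its counts were seen, with 20 counts in PBS and 0 in LPS. Kcnj15, an epithelial rectifier, had 20.4 ± 5.60 CPM in PBS and 28.6 ± 9.49 CPM in LPS and was not called (adjusted p = 0.279), and Kcnj16 had the highest log2 fold change of the class (2.06, adjusted p = 0.178) at below 1.5 CPM in every library.

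Two-pore channels carry the background leak that sets the resting potential. Of the 11 tested, Kcnk7 fell and 0 rose (9.09% called, against 16.9% of all genes tested, median log2 fold change -0.22). Kcnk7, whose product gives no current by itself, had 4.80, 3.49, 2.64 and 3.36 CPM in PBS replicates 1 to 4 and 1.93, 2.05, 0.861 and 1.27 CPM in LPS replicates 1 to 4. The groups did not overlap, and Kcnk7 fell by 1.22 on the log2 scale (SE 0.33, adjusted p = 0.0357). Omitting a single library, other than PBS replicate 3 or LPS replicate 2, ended the call (edgeR adjusted p of 0.0504 to 0.0826). Kcnk2 encodes TREK-1, a stretch-activated channel studied as a brake of the pregnant uterus. It had 9.68, 1.51, 4.36 and 3.06 CPM in PBS replicates 1 to 4 and 4.77, 5.91, 0.886 and 1.88 CPM in LPS replicates 1 to 4. The libraries of either group were scattered over much the same range, and its log2 fold change was -0.47 (SE 0.68, adjusted p = 0.677). It was 0.17 without PBS replicate 1, with no call. Kcnk3 (TASK-1), an acid-sensitive leak channel, had 6.74, 11.1, 7.42 and 10.5 CPM in PBS replicates 1 to 4 and 6.92, 10.2, 6.61 and 10.001 CPM in LPS replicates 1 to 4, and its groups overlapped (log2 fold change -0.08, SE 0.22, adjusted p = 0.827). Kcnk1 (TWIK-1) had 139 ± 14.4 CPM in PBS and 108 ± 12.8 CPM in LPS, with every LPS library below every PBS library, and was not called (log2 fold change -0.36, SE 0.11, adjusted p = 0.0562). Kcnk6 (TWIK-2), a channel of macrophages and vessels, likewise had 109 ± 6.08 CPM in PBS and 93.2 ± 6.99 CPM in LPS without overlap and was not called (log2 fold change -0.22, SE 0.08, adjusted p = 0.0950). Kcnk5 (TASK-2), an epithelial channel, was not called (log2 fold change -0.03, SE 0.14, adjusted p = 0.904).

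Genes around the channels were read from 3 lists, chosen with earlier results of these data known. For comparison, 16.9% of all genes tested were called, 9.49% higher and 7.45% lower. Of 10 partner subunits outside the family, 7 were tested, 1 fell and 0 rose (14.3% called, median log2 fold change -0.32, against 0.01 over all genes). The one that fell was Lrrc26, a gamma subunit that lets BK channels open at rest in secretory epithelia. It had 56.4, 78.5, 62.9 and 73.6 CPM in PBS replicates 1 to 4 and 42.3, 36.0, 34.5 and 38.7 CPM in LPS replicates 1 to 4, with no overlap, and fell by 0.84 on the log2 scale (SE 0.12, adjusted p = 0.00297). Dpp6, which speeds Kv4 channels, had a log2 fold change of -1.09 (adjusted p = 0.293). Of 22 genes of calcium entry and stores, 1 rose and 5 fell (27.3% called, median -0.19), and 1 or 2 fell without any one library other than PBS replicate 4. Among those that fell were Trpc1 (-1.01), Cacnb2 (-0.95), Cacna2d1 (-0.94) and the calcium pump Atp2b4 (-0.86), and the channel subunit Cacnb3 rose (0.42). The L-type pore Cacna1c, against whose opening potassium channels work, had 15.8 ± 4.85 CPM in PBS and 11.9 ± 2.13 CPM in LPS (log2 fold change -0.42, SE 0.24, adjusted p = 0.277). Of 18 tested genes of cyclic nucleotide signalling, through which relaxants act on BK and ATP-sensitive channels, 1 rose and 4 fell (27.8% called, median -0.35). The number that fell was 2 when PBS replicate 3 or LPS replicate 1 was omitted and 1 for PBS replicate 2 or LPS replicate 3. Among the genes that fell were the guanylyl cyclase subunit Gucy1a1 (-0.85, adjusted p = 0.0145), the adenylyl cyclase Adcy5 (-0.64) and the protein kinase A anchor Akap12 (-1.36), and the kinase's regulatory subunit Prkar2b rose (0.41), a call lost when any library other than PBS replicate 1 or 4 was omitted.

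The 31 members below the filter included 6 with no count in any library (Kcna10, Kcnj6, Kcnk15, Kcnk16, Kcnk18 and Kcnu1). A count of 0 over 8 libraries allows at most 3 counts, and this limit covers counting error only. Among the rest were the neuronal genes Kcnc1 and Kcnh7, with 9 and 11 counts in the 4 PBS libraries together and 2 and 1 in LPS, and the kidney channel Kcnj1, with 82 against 14, all named after their counts were seen. Of these PBS counts, replicate 2 held 6 for Kcnc1 and 7 for Kcnh7, and replicate 1 held 58 for Kcnj1. Genes below the filter were not tested. Of the tested members, 47 were not called, which does not show that they did not differ.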

How the data were processed

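RNA from 8 cervix pieces was extracted with TRIzol and made into libraries with a VAHTS Universal V6 kit, per the labels' protocols. What the authors deposited is a table of raw counts by gene symbol, and 0 of its columns were left unused. The build was mRatBN7.2 and the tools were HTSeq, HISAT2, fastp and R 3.2.0, per the submitters' processing notes, which give no roles. Neither strand setting nor annotation is stated there, so reads of overlapping and antisense genes could not be separated. LPS replicate 4 is the library that the labels number 5. The p-values set the difference between LPS and PBS against the spread between the 4 libraries of a group.

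Genes were kept by edgeR's filterByExpr (16117 genes), scaled by TMM and tested with the robust quasi-likelihood fit (edgeR 4.0.16, R 4.3.3), without covariates, at a Benjamini-Hochberg adjusted p under 0.05 over all genes. SE is the log2 fold change divided by the square root of F. The procedure was tested on simulated data. The alternatives were limma-voom (limma 3.58.1; also with quality weights), DESeq2 1.42.0, other scalings and filters, a replicate block, and leaving out libraries. Members were named with all values if called or on a set of smooth muscle and vessel channel genes. The members, classes, lists and this set were chosen with earlier results of these data known. A few genes of the family and lists are not reported here, though counts and medians include them. Motifs were searched in RefSeq promoters (GRCr8). Intervals and floors cover counting error only.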

Additional observations from a re-analysis of the deposited data

Results flagged for a closer look

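In 6 of 124 groups of 4 libraries (62 tested members in PBS or LPS), the gap between 1 library and its nearest companion, as a share of the whole range, was above Dixon's critical value of 0.829. Chance flags about 1 in 20 such groups. The values of 5 of them follow. The Kv7 modulator Kcne4 had 21.0 CPM in LPS replicate 3, against 9.55 CPM in the next LPS library. LPS replicate 2 held 2.71 CPM of Kcnb2 (next 0.880 CPM) and 9.24 CPM of Kcnip4 (next 4.99 CPM). Kcna3 stood at 0.665 CPM in PBS replicate 3 (next 0.230 CPM), and Kcnk12 at 1.19 CPM in LPS replicate 1 (next 0.636 CPM).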

How the results depend on the processing

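Over 8 fits that each left out 1 library, 4 to 7 members were called higher and 5 to 10 lower, and of all genes 904 to 1385 higher and 563 to 1199 lower. The lower ends of the falls came without PBS replicate 2 (5 members and 563 genes lower, 904 genes higher) and LPS replicate 3 (5 members and 750 genes lower), and without PBS replicate 3 the table had 752 lower genes. DESeq2 called 16 members and 2089 genes lower and 9 members and 2099 genes higher, and with PBS replicate 1 and LPS replicate 2 omitted together 4 members were lower. The cause was not tested. Among uncalled genes the direction turned for Kcne4 (0.0222 with both of these omitted), Kcnk2 (0.17 without PBS replicate 1) and Kcnk3 (0.0376 without PBS replicate 2, 0.0165 without LPS replicate 3). Over all omissions they ranged from -0.73 to 0.02 (Kcne4), -0.90 to 0.17 (Kcnk2) and -0.30 to 0.04 (Kcnk3) on the log2 scale. No scaling moved the median log2 fold change of all genes by over 0.1.

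Replicate numbers did not pair the libraries: same-numbered deviations from the group means correlated at -0.134, -0.181, -0.0867 and 0.208, and of the 4 pairs only the fourth correlated best with its own number. With a replicate block 7 members were higher and 6 lower, and 1151 genes were higher and 845 lower in all. Among the calls lost under the block were Kcna2, Kcng1 and Kcnip2. Depth limits the genes below 1 CPM, where 3 counts correspond to 0.0734 to 0.0899 CPM.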

Other observations

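Ratios between channel subunits were computed within each library, on pairs chosen after their values were seen, and carry no test. Per 100 counts of the epithelial pore Kcnq1, its opener Kcne3 had 11.7, 7.43, 19.9 and 13.2 counts in PBS replicates 1 to 4 and 72.2, 79.2, 123 and 176 in LPS replicates 1 to 4, with no overlap. Both genes were called, in opposite directions, so that this ratio carries both changes. Bulk counts do not show whether both genes were expressed in the same cells. For Kcne4, an inhibitor of the same pore, it was 30.0 ± 17.0 in PBS and 58.8 ± 38.9 in LPS (mean ± SD, n = 4), with overlap. Per 100 counts of Kcnd3, the Kv4.3 pore, Kcnip2 had 96.9 ± 55.7 counts in PBS and 29.6 ± 18.3 in LPS (mean ± SD, n = 4), without overlap, though LPS replicate 4 (56.8) lay close to PBS replicate 1 (59.9). The 3 Kv4 genes all had positive log2 fold changes (1 called) and the 4 KChIP genes all had negative ones (1 called). Negative values were also held by 39 of the 62 tested members and by 9 of the 11 tested auxiliary genes, KChIP genes included.

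Per 100 counts of Abcc9, the sulfonylurea receptor subunit, the ATP-sensitive pore gene Kcnj8 had 67.8, 58.3, 60.3 and 48.3 counts in PBS replicates 1 to 4 and 74.1, 79.9, 142 and 70.7 in LPS replicates 1 to 4. These ratios did not overlap, while the CPM of either gene did, though LPS replicate 4 (70.7) lay close to PBS replicate 1 (67.8). The counterpart for the BK channel, Kcnmb1 per 100 counts of Kcnma1, overlapped, with 513 ± 248 in PBS and 377 ± 47.2 in LPS, and PBS replicate 3 (871) was the highest.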
